A study of Mus musculus with 36 samples.

Results

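The genes described here build and hold the connective tissue frame of the mouse spleen: 42 listed genes for collagens, proteoglycans, elastic fibre proteins, smooth muscle proteins, matrix receptors and matrix proteases. Of these, 41 had a probe set naming that gene alone, and all 41 passed the filter on low values, among 12427 genes past it of 18193 measured. The 1 gene without such a probe set was Fbn1, which was left out. Expression was measured on Affymetrix arrays in total RNA of whole spleens from 36 mice of an F2 cross, 4 months old, with 1 array per mouse. There were 18 arthritic mice (ART1 to ART18) and 18 non-arthritic mice (NON1 to NON18). The series title describes mice deficient for interleukin 1 receptor antagonist, the natural blocker of interleukin 1 signalling. The labels give no genotype, strain, sex or treatment for any single mouse, so the sources used here do not say whether the non-arthritic mice carry the same deficiency. The series is about subpopulations of arthritic mice, and the first 9 arthritic mice by title number are set apart below. The labels do not state that division.

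The spleen is wrapped in a capsule of collagen, elastic fibres and smooth muscle under a layer of mesothelium, and beams of the same tissue, the trabeculae, run inward with the larger vessels. Fibrillar collagens (types I, III and V) give the tissue its tensile strength. Small leucine-rich proteoglycans such as decorin and lumican bind to and space the fibrils, type VI collagen forms beaded filaments around cells, and type IV collagen with nidogen forms the basement membranes of vessels and sinuses. Elastic fibres consist of an elastin core on microfibrils, joined by fibulins and crosslinked by lysyl oxidases. Smooth muscle of the capsule, trabeculae and arteries contains alpha actin, SM22 (Tagln), calponin and smooth muscle myosin. In RNA of a whole spleen, fewer cells of a type and less RNA per cell cannot be told apart.

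The start regions of 3 members are shown because their genes stand in different places in the results: Acta2 was lower in ART1 to ART9, Myl9, another smooth muscle gene, was not, and Col3a1 is among the genes with the smallest p-values between arthritic and non-arthritic mice. Each runs 5′ to 3′ on the gene's strand, from 250 bases before to 50 after the RefSeq start (GRCm38.p6). Capitals mark the letters TATAAA or an exact CArG box (CC, then only A or T, then GG), where one was found. The CArG box is the motif bound by serum response factor in smooth muscle genes. Near matches were not searched or marked. A window without capitals can hold them, as that of Acta2 does (ccctatatgg and ccttgtttgg).
Acta2 (chr19:34255324-34255623, minus strand): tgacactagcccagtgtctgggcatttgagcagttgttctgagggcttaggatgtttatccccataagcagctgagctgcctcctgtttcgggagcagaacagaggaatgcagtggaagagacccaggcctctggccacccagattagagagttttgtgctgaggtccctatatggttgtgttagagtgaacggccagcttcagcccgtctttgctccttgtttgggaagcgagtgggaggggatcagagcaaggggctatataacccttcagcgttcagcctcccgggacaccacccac
Myl9 (chr2:156775214-156775513, plus strand): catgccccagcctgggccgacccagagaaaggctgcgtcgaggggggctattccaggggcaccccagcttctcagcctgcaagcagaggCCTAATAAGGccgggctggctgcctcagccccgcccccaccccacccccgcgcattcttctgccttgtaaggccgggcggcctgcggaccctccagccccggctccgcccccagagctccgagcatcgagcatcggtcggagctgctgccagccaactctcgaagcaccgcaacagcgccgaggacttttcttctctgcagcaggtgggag
Col3a1 (chr1:45311288-45311587, plus strand): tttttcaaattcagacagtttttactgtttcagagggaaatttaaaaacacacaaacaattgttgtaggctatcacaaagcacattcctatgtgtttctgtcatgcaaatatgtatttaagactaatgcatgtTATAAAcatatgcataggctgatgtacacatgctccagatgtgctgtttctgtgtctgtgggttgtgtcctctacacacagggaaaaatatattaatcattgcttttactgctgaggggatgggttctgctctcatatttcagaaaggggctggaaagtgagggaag
A window was held for 25 members. An exact CArG box on either strand was found in 1 of them, Myl9, 161 bases before the start, against 1.76% of 17491 protein-coding genes. The letters TATAAA on either strand were in 4 of the 25, which is 16% against 14.8% of the same protein-coding genes, and in Col3a1 they lay 117 bases before the start. A match describes letters in these windows and nothing about binding.

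Before the results, the arrays have to be described, because they fall into sets that cross the 2 groups. 4 control transcripts of bacteria and phage are added to each hybridisation, and the signals of their 18 probe sets split the arrays into 3 sets, called here spike-in batches A, B and C. The labels name no batch. Batch A holds ART1 to ART9 and the 4 non-arthritic mice NON1, NON2, NON5 and NON6. Batch B holds 6 arthritic and 10 non-arthritic mice, and batch C holds 3 and 4. Among arthritic mice, ART1 to ART9 and batch A are the same arrays, so those 2 divisions cannot be told apart. The 3′ to 5′ signal ratio of Gapdh, a measure of RNA and labelling quality, ran from 0.679 to 0.837 in ART1 to ART9 and from 0.729 to 0.888 in the 4 non-arthritic mice of batch A. It ran from 0.834 to 1.16 in ART10 to ART18 and from 0.846 to 1.13 in the other 14 non-arthritic mice. The median intensity of an array was between 110.6 and 183.2. Transcripts of the acinar pancreas, whose tail lies against the spleen, were high in ART8, NON5 and NON6. B cell, T cell, red pulp macrophage and spleen mesenchyme markers with a probe set were all past the filter. Of the 2 red cell markers Alas2 was past it and Hba-a1 (mean 5.92) was not.

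Levels below are log2(value + 16) of the deposited intensity, and a difference of 1 is a 2-fold change on that scale. Levels are compared between mice and never between genes, because probe sets differ in brightness. The members varied more across mice than most genes: their median SD was 0.370 log2, against 0.304 for all genes past the filter. A share of 19.5% of them, 8 of 41, had an SD above the 90th percentile of genes, against 10% of genes by definition. They were Mfap4, Dcn, Col15a1, Mgp, Cnn1, Lox, Lum and Myh11. The count was 14 with a pseudocount of 64 and 3 with no filter. Mfap4, a microfibril-associated glycoprotein of elastic fibres, varied most: its levels spanned 31.0-fold, from 4.65 in ART3 to 9.61 in NON11, with an SD of 1.62. Dcn, decorin, spanned 9.12-fold, from 9.04 in ART6 to 12.23 in NON14. Col5a2, a fibrillar collagen chain that regulates fibril diameter, varied least, by 1.84-fold. Relative to each gene's mean, the median member lay between -0.517 and -0.128 in ART1 to ART9, where 25 to 36 of the 41 members were below their own mean. In ART10 to ART18 that median lay between -0.122 and 0.301. In the 4 non-arthritic mice of batch A it lay between -0.443 and 0.185, with NON6 lowest, and in the other 14 between -0.143 and 0.631. NON11 was at the top of that range, with 1 member below its mean.

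**Figure D1:**
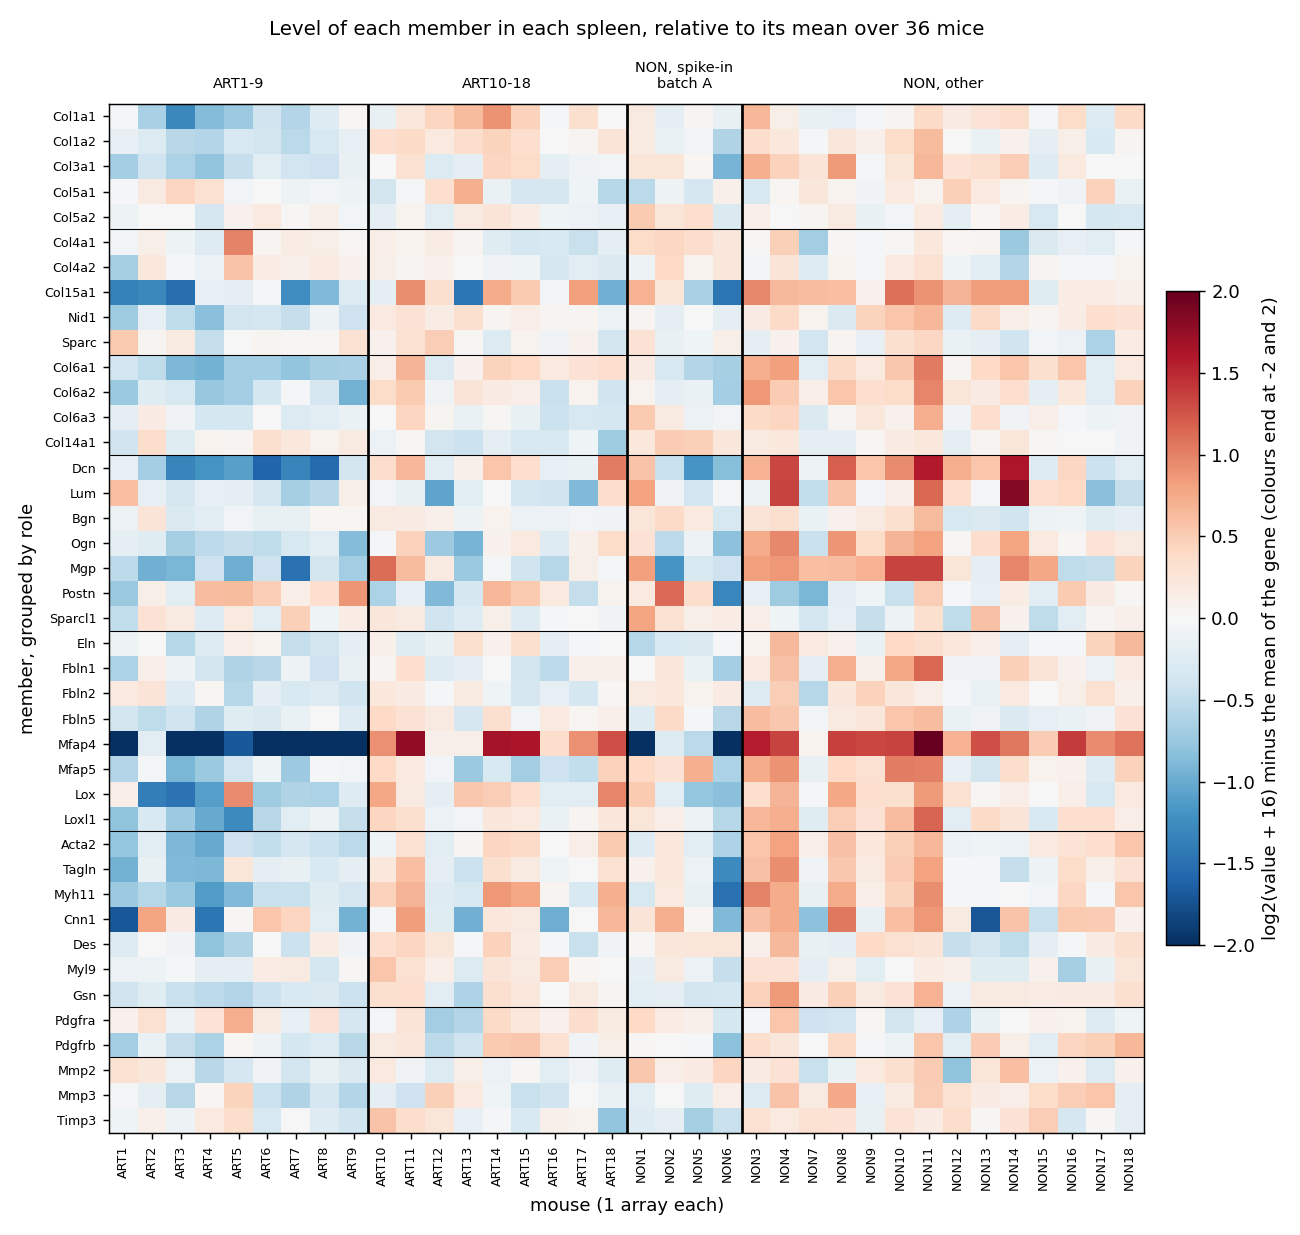
Level of each of the 41 members (rows, grouped by role) in each of the 36 mice (columns, in 4 sets), as log2(value + 16) minus the gene's mean over all mice. In ART1 to ART9 between 25 and 36 members of each mouse lie below their mean, and NON6 and NON11 stand at opposite ends among non-arthritic mice.

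Spleens of ART1 to ART9 had lower levels of 22 of the 41 members than the other 27 mice, each read by its brightest probe set, and none was higher (limma, adjusted p under 0.05 over 27022 probe sets). With all probe sets of a gene averaged, 16 of 38 members were lower and 3 higher. By brightest probe set, 6 of 8 elastic fibre genes, 5 of 7 smooth muscle genes and 3 of 5 fibrillar collagens were lower. So were 2 of 4 bead and fibril-associated collagens, 2 of 5 basement membrane genes and 3 of 7 proteoglycans and their kin. Of the receptors 1 of 2 was lower, and of the proteases and their inhibitor 0 of 3. The share of all tested probe sets called lower was 14.8%, called higher 16%, and called in either direction 30.8%. The median difference of the members was -0.411, against 0.0235 over all probe sets tested, and 33 members had a negative difference. Mfap4 and Col15a1 had means in ART1 to ART9 under the filter level and passed it through the other mice. Without both, 20 of 39 were lower. ART1 to ART9 were set apart with these arrays' results known, so the p-values give the size of a difference against the spread and are not an independent test of the division. Against ART10 to ART18 alone, 17 members were lower (13.8% of probe sets were) and 1 was higher (15.8% were). Against the 4 non-arthritic mice of batch A alone, no member and 0% of all probe sets passed. The smallest adjusted p of a member was 0.382, 34 of 41 differences were negative, and 12 had an unadjusted p under 0.05, as had 11.6% of all probe sets. The count was likewise 0 in a fit with a term for the spike-in batch. With the Gapdh 3′ to 5′ ratio as a covariate, 2 members passed as lower, Mfap4 (a difference of -2.03) and Nid1, as did 0.4% of all probe sets.

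Among elastic fibre genes 6 of 8 were lower in ART1 to ART9. Mfap4 ranged from 4.65 to 7.31 in ART1 to ART9, with a median of 5.39, and from 7.63 to 9.30 in ART10 to ART18, with a median of 8.44. In the non-arthritic mice of batch A it stood at 4.89, 7.26, 6.996 and 5.15, and in the other 14 it ranged from 7.61 to 9.61, with a median of 8.84. All 13 mice of batch A were thus below all 23 others, a separation that 0.644% of genes past the filter showed and that no other member did. Within batch A the arthritic and non-arthritic values overlapped. On the deposited scale this is 9.11 to 142 in ART1 to ART9 against 182 to 614 in ART10 to ART18. The log2 difference between ART1 to ART9 and the other 27 mice was -2.81 (SE 0.38, adjusted p = 3.98e-06). Its mean of 5.42 in ART1 to ART9 was under the level of 6.49 used as the filter, and set against that level Mfap4 was at least 3.35-fold lower. Loxl1, which crosslinks elastin, was lower by a log2 difference of -0.81 (SE 0.14), and Lox, its relative that also acts on collagen, by -0.76 (SE 0.20). Mfap5, a microfibril protein, stood at -0.53, and Fbln5, needed for elastic fibre assembly, and Fbln1 at -0.41 each. For Fbln1 the differences were not the same across its probe sets, and another one gave 0.28. A dimmer probe set of Mfap5 stood at -0.02 (adjusted p = 0.930). Elastin itself (Eln, -0.26, adjusted p = 0.0588) and Fbln2 (-0.22, adjusted p = 0.0982) did not pass.

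Of 7 smooth muscle members 5 were lower. Acta2, alpha smooth muscle actin, ranged from 11.66 to 12.46 in ART1 to ART9, with a median of 12.18. It ranged from 12.45 to 13.20 in ART10 to ART18, with a median of 12.81, so those 2 sets met only at their edges. The 4 non-arthritic mice of batch A had 12.42, 12.88, 12.46 and 12.06, and the other 14 had 12.55 to 13.47. The difference from the other 27 was -0.76 (SE 0.12, adjusted p = 1.77e-05), a 1.69-fold lower level. A much dimmer probe set of Acta2 stood at -0.03 (adjusted p = 0.935). Myh11, the smooth muscle myosin heavy chain, differed by -0.82 (SE 0.18), Gsn, the actin-severing gelsolin, by -0.54 (SE 0.11), Tagln by -0.51 (SE 0.16, adjusted p = 0.0127) and Des, the filament protein desmin, by -0.31 (SE 0.12, adjusted p = 0.0361). Cnn1, calponin, which spread widely in every set, stood at -0.35 (SE 0.27, adjusted p = 0.343). Myl9, the regulatory myosin light chain whose window holds the exact CArG box, stood at -0.09 (SE 0.10, adjusted p = 0.484). Against ART10 to ART18 alone Myl9 stood at -0.26 (SE 0.10, adjusted p = 0.054). Cnn1 and Myl9 were on the same side as the called members, without passing.

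Collagens divided by type. Col6a1, a chain of the beaded type VI collagen, ranged from 8.86 to 9.42 in ART1 to ART9, with a median of 9.13, and from 9.53 to 10.48 in ART10 to ART18, with a median of 10.10. The 2 sets did not overlap, which 3 members showed (Col6a1, Col1a2 and Mfap4), as did 2.03% of genes. The batch A non-arthritic mice, at 9.97, 9.48, 9.22 and 9.14, lay between and across them, and the other 14 ranged from 9.59 to 10.85. Col6a1 was 1.89-fold lower in ART1 to ART9 than in the other 27 (-0.92, SE 0.14, adjusted p = 9.90e-06), and Col6a2 was lower by a log2 difference of -0.66 (SE 0.13), whereas Col6a3 stood at -0.20 (SE 0.10, adjusted p = 0.115). Both type I chains were lower, Col1a1 by -0.71 (SE 0.12) and Col1a2 by -0.49 (SE 0.09), and so was Col3a1, the reticular fibre collagen, by -0.61 (SE 0.12). The type V chains Col5a1 (0.08) and Col5a2 (-0.01) did not pass. In the basement membrane group, Nid1, which links laminin to type IV collagen, was lower (-0.58, SE 0.09), though another of its probe sets was higher (0.57, adjusted p = 0.0316). Col15a1 was lower too (-1.03, SE 0.26), but its mean of 5.81 in ART1 to ART9 was under the filter level, against which it was at least 1.27-fold lower. Both type IV chains (Col4a1 0.16, Col4a2 0.08) and Sparc, a collagen-binding matricellular protein (0.11, SE 0.10, adjusted p = 0.442), had positive differences that did not pass. A second probe set of Col4a1 was higher (0.66, adjusted p = 0.00230). Col14a1, a fibril-associated collagen, was 1.27-fold higher in ART1 to ART9 than in ART10 to ART18 (0.35, SE 0.11, adjusted p = 0.0182), but stood at 0.09 against all 27 others.

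Of the proteoglycans and their kin 3 of 7 were lower. Dcn ranged from 9.04 to 10.46 in ART1 to ART9, with a median of 9.42, from 10.41 to 11.65 in ART10 to ART18, with a median of 10.96, and from 10.19 to 12.23 in the 14 non-arthritic mice outside batch A. In batch A the non-arthritic mice had 11.19, 10.17, 9.44 and 9.77. NON1 thus had a Dcn level of the higher kind while its Mfap4 was among the lowest of all mice. Dcn was 2.58-fold lower in ART1 to ART9 than in the other 27 (-1.37, SE 0.24, adjusted p = 6.01e-05). Mgp, matrix Gla protein, an inhibitor of calcification, was lower by a log2 difference of -1.002 (SE 0.22), and Ogn, osteoglycin, stood at -0.59 (SE 0.17). Lum, lumican, ranged from 6.43 to 7.69 in ART1 to ART9 and from 6.04 to 7.45 in ART10 to ART18. These ranges overlapped almost wholly, and its difference was -0.25 (SE 0.23, adjusted p = 0.420) against the 27 and 0.12 against ART10 to ART18. Bgn (-0.09), Postn (0.33) and Sparcl1 (0.03) did not pass. Of the platelet-derived growth factor receptors, which mark mesenchymal cells, Pdgfrb was lower (-0.47, SE 0.12), with a second probe set that did not pass (-0.24, adjusted p = 0.23). Pdgfra did not pass (0.19, adjusted p = 0.240), while a dimmer probe set of it was higher (0.77, adjusted p = 0.000628). The proteases Mmp2 and Mmp3 and the inhibitor Timp3 did not pass by their brightest probe sets. Another probe set of Mmp2 was lower (-0.43), and 3 others of Timp3 were higher (0.51, 0.63 and 0.76).

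**Figure D2:**
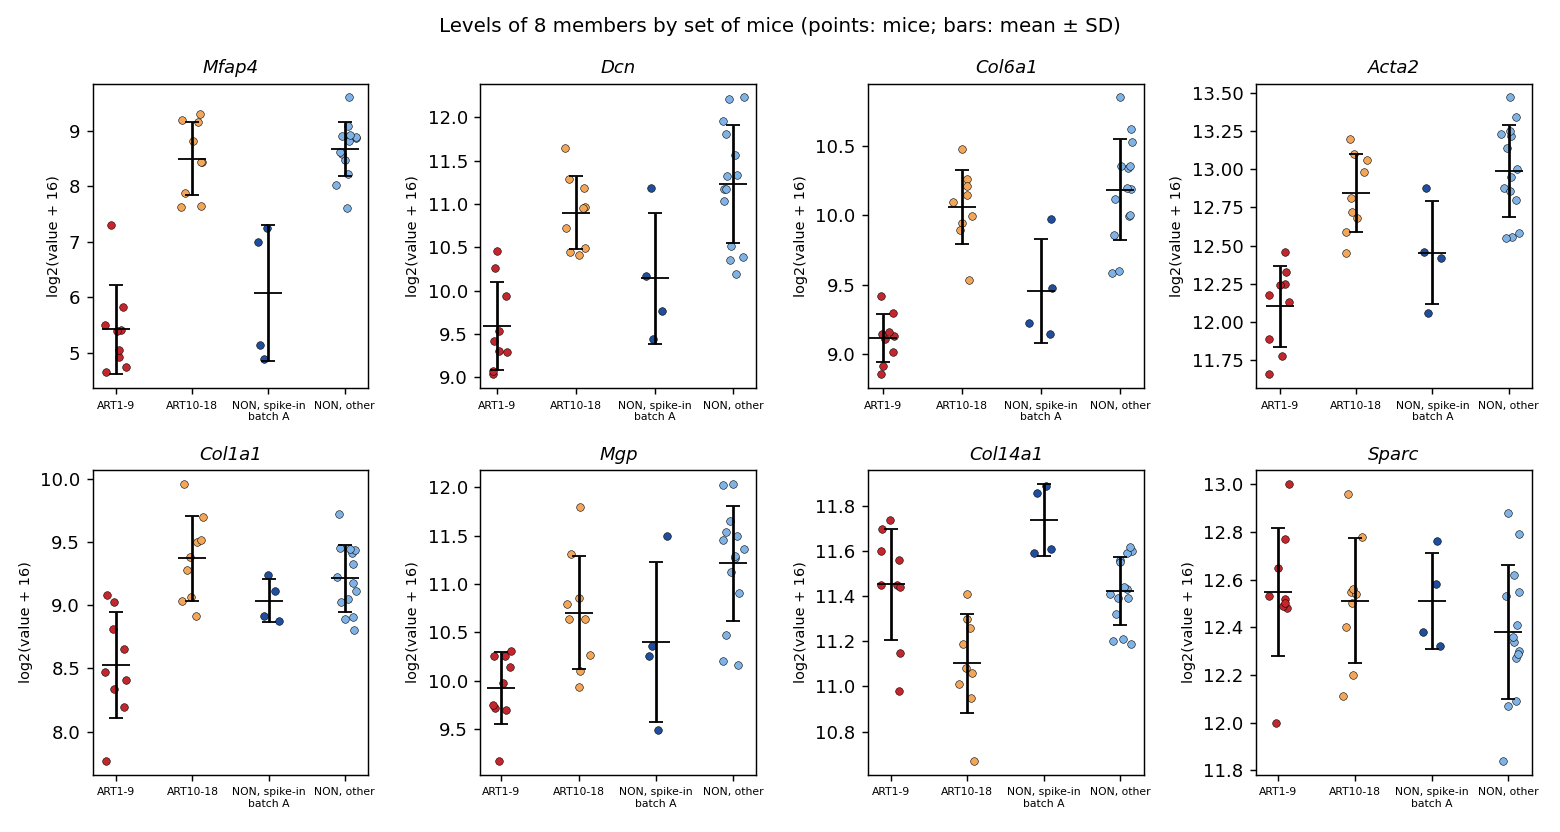
Levels of 8 members, as log2(value + 16), in the 4 sets of mice; points are mice and bars are mean and SD (n = 9, 9, 4 and 14). All mice of batch A lie below all others for Mfap4, ART1-9 and ART10-18 do not overlap for Col6a1, and the 4 sets overlap for Sparc.

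Because ART1 to ART9 coincide with batch A among arthritic mice, the same array division was compared in non-arthritic mice, who contribute none of those arrays. The 4 non-arthritic mice of batch A had lower levels of 11 members than the other 14, against 10.1% of probe sets called lower, and higher levels of 2, against 16.1% called higher and 26.2% called in either direction. The median difference of the members was -0.292, against 0.0846 over all probe sets. With all probe sets of a gene averaged (38 members) that median was -0.0254, with 19 members negative and 19 positive. Without ART8, NON5 and NON6 it was -0.0916, with 24 of 41 negative. Mfap4 differed by -2.61 (SE 0.38, adjusted p = 5.71e-06), and with a mean of 6.07 in these 4 mice it was at least 4.57-fold lower when set against the filter level. Dcn was lower 2.13-fold (-1.09, SE 0.31, adjusted p = 0.00957) and Col6a1 1.66-fold (-0.73, SE 0.17, adjusted p = 0.00136). Gsn stood at 13.04, 13.09, 12.89 and 12.92 in these 4 mice and at 13.14 to 14.12 in the other 14, without overlap. Gsn and Mfap4 were the 2 members without overlap here, as were 3.55% of genes. Acta2 (-0.53), Myh11 (-0.77), Mgp (-0.81), Ogn (-0.70), Col6a2 (-0.57), Eln (-0.49) and Timp3 (-0.53) were lower, and Col14a1 (0.32, SE 0.11) and Col4a1 (0.44, SE 0.16) were higher. Where all probe sets of a gene were averaged, the differences of Dcn, Acta2 and Timp3 were 0.05, 0.09 and 0.02, so their direction here rests on the brightest probe set.

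Acinar pancreas genes had higher means in these 4 mice, of which NON5 and NON6 were the ones with high pancreas transcripts. All 5 tested passed, with a median difference of 3.08. Their summed intensity ran from 2309 to 152500 against 1855 to 3695 in the other 14, so the lowest of the 4 lay within that range. Without ART8, NON5 and NON6, with 2 of the 4 mice left, there were 3 calls among the 41 members, Mfap4 (-2.61) and Eln lower and Col5a2 higher, while 13.5% of all probe sets were called. Without NON6 alone there were 8 calls, against 23.4% of all probe sets. With the Gapdh ratio as a covariate there were 2, against 12.4%, and with the median intensity 6, against 14.9%. Called in either direction, the members' share in these 4 settings was thus near or below that of all probe sets. Called lower, in the same order, were 2, 6, 2 and 5 of the 41 members. The shares of all probe sets called lower were 5.35%, 9.18%, 5.47% and 6.91%.

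The 17 members lower in ART1 to ART9 against ART10 to ART18 and the 11 lower in non-arthritic mice of batch A, from arrays with no mouse in common, shared 8 genes, which is 47.1% of the first list and 72.7% of the second. Over all probe sets the shared part, 5.95% of those tested, was 43.0% of the first and 59.1% of the second, so overlap of this order was not particular to the members. The shared genes were Acta2, Col6a1, Col6a2, Dcn, Gsn, Mfap4, Mgp and Myh11. The difference between the 2 effects was tested as an interaction: no member and 0% of all probe sets passed, and 5 members had an unadjusted p under 0.05, as had 4369 of the 27022 probe sets. The smallest adjusted p was that of Col1a1, which stood at -0.84 in arthritic and -0.18 in non-arthritic mice (difference -0.66, SE 0.23, adjusted p = 0.164).

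**Figure D3:**
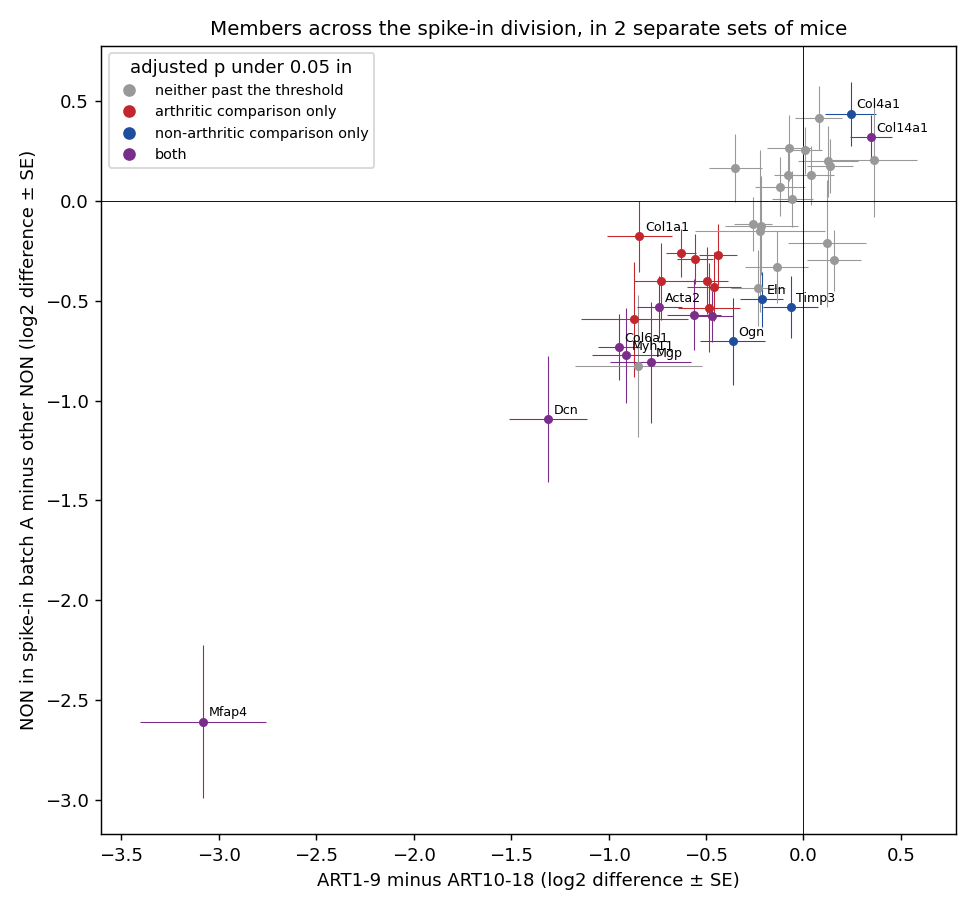
For each member, the log2 difference of ART1-9 minus ART10-18 (horizontal, with SE) against that of non-arthritic mice in spike-in batch A minus the other non-arthritic mice (vertical, with SE). Mfap4 lies at the far lower left (-3.08 and -2.61), 8 members passed the threshold as lower in both, and Col14a1 passed as higher in both.

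Arthritic and non-arthritic spleens differed in no member at an adjusted p under 0.05, and 13 of all 27022 probe sets (0.0481%) passed, all of them higher. The members nonetheless leaned one way: 37 of 41 had lower means in arthritic mice, and 21 had an unadjusted p under 0.05, a share to be read beside 15.7% of all probe sets. Their median difference was -0.253, against 0.00323 over all probe sets. The members share mice and vary together, so these counts are a description and not a test. The smallest adjusted p was that of Mfap5, which ranged from 7.11 to 8.49 in arthritic mice, with a median of 7.69, and from 7.40 to 9.06 in non-arthritic mice, with a median of 8.37. The ranges overlapped, and 16 of 18 arthritic mice were below the non-arthritic median (-0.58, SE 0.15, adjusted p = 0.0857). A dimmer probe set of Mfap5 stood at -0.25 (adjusted p = 0.22). Col3a1 ranged from 11.19 to 12.40 against 11.04 to 12.82, with medians of 11.78 and 12.22 (-0.42, SE 0.12, adjusted p = 0.0975). Ogn stood at -0.52 (SE 0.15, adjusted p = 0.0987) and Mgp at -0.72 (SE 0.21, adjusted p = 0.105), each again with 16 of 18 arthritic mice below the non-arthritic median. No member separated the 2 groups, and 0% of genes did.

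By role, all 8 elastic fibre genes, all 5 fibrillar collagens and all 4 bead and fibril-associated collagens had lower means in arthritic mice, with median differences of -0.327, -0.101 and -0.336. Of the proteoglycans and their kin 6 of 7 did (median -0.499) and of the smooth muscle members 6 of 7 (median -0.300). Among the genes that led the previous comparison, Mfap4 stood at -1.14 (SE 0.48, adjusted p = 0.239), Dcn at -0.74 (SE 0.26, adjusted p = 0.156), Acta2 at -0.40 (SE 0.13, adjusted p = 0.149) and Col1a1 at -0.22 (SE 0.14, adjusted p = 0.435). Lum stood at -0.50 (SE 0.18, adjusted p = 0.185), Tagln at -0.28 (SE 0.15) and Myh11 at -0.32 (SE 0.19). The 4 members with higher means were Sparc (0.12), Myl9 (0.12), Postn (0.13) and Pdgfra (0.16).

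The lean was smaller without ART1 to ART9. In that comparison 30 of 41 differences were negative, 7 had an unadjusted p under 0.05 and the median was -0.0692. Mfap4 (0.40), Col1a1 (0.20) and Myh11 (0.13) had positive differences. Leaving out ART1 to ART9 kept batch A among non-arthritic mice alone, so array sets were not equal there. Mfap4 had a mean of 6.07 in those 4 mice and 8.68 in the other 14 non-arthritic mice. Within the spike-in batches, where array sets are equal, 34, 27 and 32 members had negative differences in A, B and C, with medians of -0.240, -0.102 and -0.266, and no member passed in any. The difference was negative in all 3 batches for 23 members, among them Mfap5 (-0.59, -0.40 and -0.75), Col3a1 (-0.36, -0.22 and -0.35), Mgp (-0.48, -0.36 and -0.88), Col14a1 (-0.29, -0.32 and -0.32) and Lum (-0.27, -0.49 and -0.86). It was positive in all 3 for Sparc and Myl9. Mfap4 was negative in A and C (-0.65 and -0.70) and stood at 0.06 in B. Without the 3 mice with pancreas transcripts 4 members passed as lower, Col3a1 (-0.49, adjusted p = 0.0394), Mfap5, Ogn and Loxl1, as did 0.381% of all probe sets. Without NON2, 3 passed as lower (Mgp, Ogn and Mfap5; 0.392% of all), and without NON6, 1 did (Col3a1; 0.0259% of all).

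**Figure D4:**
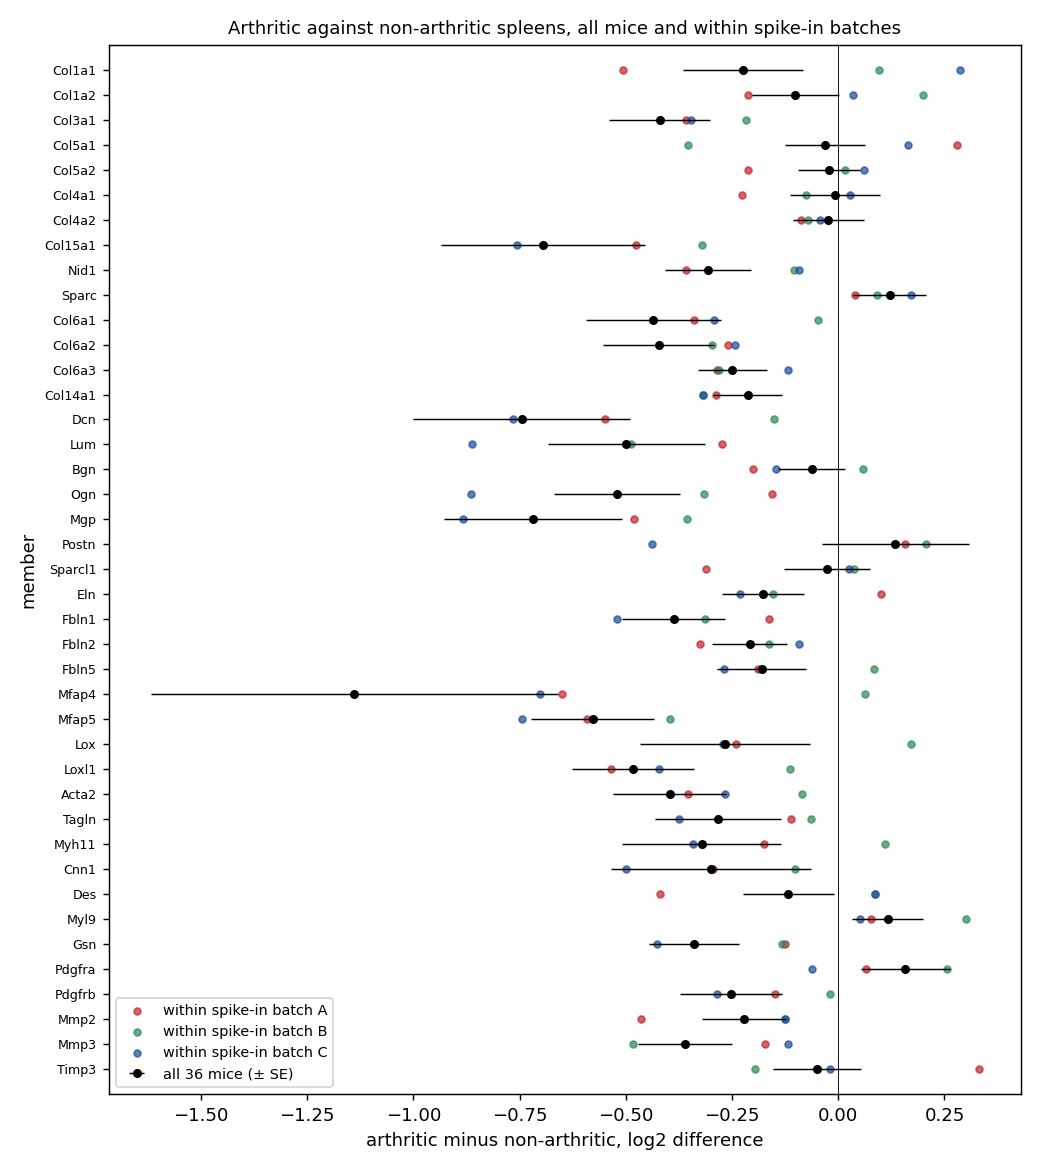
Arthritic minus non-arthritic log2 difference of each member in all 36 mice (black, with SE) and within each spike-in batch (coloured). Of the 41 black points 37 lie below 0 and none passed the threshold; 23 members lie below 0 in all 3 batches.

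Markers of the tissues that hold or adjoin the capsule were read from lists. All 10 mesothelial markers were tested, and between arthritic and non-arthritic mice none passed. Of the 10, 7 had an unadjusted p under 0.05, beside 15.7% of all probe sets. Their median difference was -0.438, with Upk1b at -0.61, Upk3b at -0.79 and Lrrn4 at -0.56. Their summed intensity ran from 1074 to 1625 in ART1 to ART9, 630 to 2496 in ART10 to ART18, 1192 to 2358 in the non-arthritic mice of batch A and 1226 to 3453 in the other 14, so mesothelial signal was on the same side as the members. In ART1 to ART9 against the others, 2 of the 10 mesothelial markers were lower, Bnc1 (-0.67) and Msln (-0.63), a share near the 14.8% of all probe sets. Of 5 adipocyte markers tested none passed, and their median difference between arthritic and non-arthritic mice was -0.788, with summed intensities from 1303 to 22680 that overlapped in all 4 sets. Of 10 endothelial markers 3 were higher in ART1 to ART9 (Eng 0.71, Stab2 0.68, Tek 0.40) and none lower. Of all probe sets 16% were higher and 14.8% lower. In non-arthritic mice of batch A 3 were higher too, among them Tek (0.93) and Eng (0.80), and Esam was lower (-0.38), beside 16.1% and 10.1%. Among markers of white pulp reticular fibroblasts, 3 of 5 tested were lower in ART1 to ART9 (Il7, Pdpn and Madcam1), and none passed in non-arthritic mice of batch A. All 3 red pulp macrophage markers were higher in ART1 to ART9. In non-arthritic mice of batch A Spic (0.84) and Hmox1 (0.80) were higher, and Vcam1 (0.19) did not pass. The 3 markers of spleen mesenchyme did not move together. In ART1 to ART9 Tlx1 was higher (0.37, adjusted p = 0.0143), while Tcf21 (0.16, adjusted p = 0.441) and Nkx2-5 (-0.26, adjusted p = 0.0618) did not pass. In non-arthritic mice of batch A Tlx1 (0.58) and Tcf21 (0.51) were higher, and Nkx2-5 (0.21) did not pass. Between arthritic and non-arthritic mice none passed (Tlx1 0.14, Nkx2-5 -0.16, Tcf21 -0.18). Of 2 T cell markers tested, Cd3e was lower in ART1 to ART9 (-0.80) and in non-arthritic mice of batch A (-0.70). The other, Cd3g, passed in neither (-0.35, adjusted p = 0.0504, and -0.28, adjusted p = 0.298). Of 6 skeletal muscle markers 5 were below the filter. The part of these tissues in the members' differences was not tested.

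Further genes of the same pathways were read from a list of 52 genes for matrix processing, matrix adhesion and transforming growth factor beta, of which 45 were tested. None passed between arthritic and non-arthritic mice. In ART1 to ART9, 18 of the 45 were lower, beside 14.8% of all probe sets, and 7 were higher, a share near the 16% of all. The lower genes with the smallest p-values were Ltbp2, a microfibril-binding protein (-1.31, SE 0.17), Itga8, an integrin chain of smooth muscle and mesenchyme (-0.90, SE 0.14), and Fmod, fibromodulin, a close relative of lumican (-1.24, SE 0.20). Nid2 (0.72), Itgb1 (0.45) and Pcolce2, an enhancer of procollagen processing (0.996), were higher. In non-arthritic mice of batch A, 10 were lower and 11 higher, beside 10.1% and 16.1% of all probe sets, with Tnc, tenascin C, at -1.66 (SE 0.28), Fmod at -1.20 (SE 0.21) and Nid2 at 0.78 (SE 0.14). Nid2 and the brightest probe set of Nid1 thus stood on opposite sides in ART1 to ART9. Of 14 tested regulators and further proteins of smooth muscle contraction, 7 were lower in ART1 to ART9, beside 14.8% of all probe sets, and none higher. They included Mkl1, a cofactor of serum response factor (-0.77, SE 0.09), Cald1, caldesmon (-0.34, SE 0.07), and Mylk, the kinase of the myosin light chain (-0.39, SE 0.08). In non-arthritic mice of batch A 3 were lower, Tpm2 (-0.89, SE 0.15), Mkl1 (-0.43, SE 0.10) and Mylk (-0.40, SE 0.10).

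Members were also compared with each other across mice, within each spike-in batch so that the array division does not enter. Of 24 relations (8 pairs in 3 batches), 23 were positive and 13 passed at an adjusted p under 0.05 for Pearson's r (permutation tests, exact in the 7 mice of batch C, adjusted over the 24). A further 2, Mfap4 with Dcn in B and Col4a1 with Col4a2 in A, stood at an adjusted permutation p of 0.0504. Dcn and Lum, which both bind collagen fibrils, followed each other in batches A, B and C, with r of 0.921, 0.847 and 0.942 and rho of 0.885, 0.774 and 0.929 (n = 13, 16 and 7). Without the 2 mice farthest from the median of Dcn, r was 0.805, 0.712 and 0.662. Acta2 and Tagln gave r of 0.778, 0.845 and 0.869, and rho of 0.824, 0.812 and 0.857; without the 2 farthest mice r was 0.746, 0.746 and 0.786. Myh11 and Mfap4 gave r of 0.747 in B and 0.969 in C, while in A, where Mfap4 was near the bottom of the scale, r was 0.412 (adjusted permutation p = 0.207). Mfap4 and Dcn gave r of 0.0514 in A (adjusted permutation p = 0.872), 0.541 in B and 0.864 in C. Col3a1 and Dcn gave 0.380 in A, 0.694 in B and 0.961 in C. Col1a1 and Col3a1, whose products join in mixed fibrils, passed in no batch, with r of 0.502, 0.343 and -0.273. Without the 2 farthest mice, which left 11, 14 and 5, 6 of the 24 relations passed, while r of the 13 that had passed stayed between 0.574 and 0.940.

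**Figure D5:**
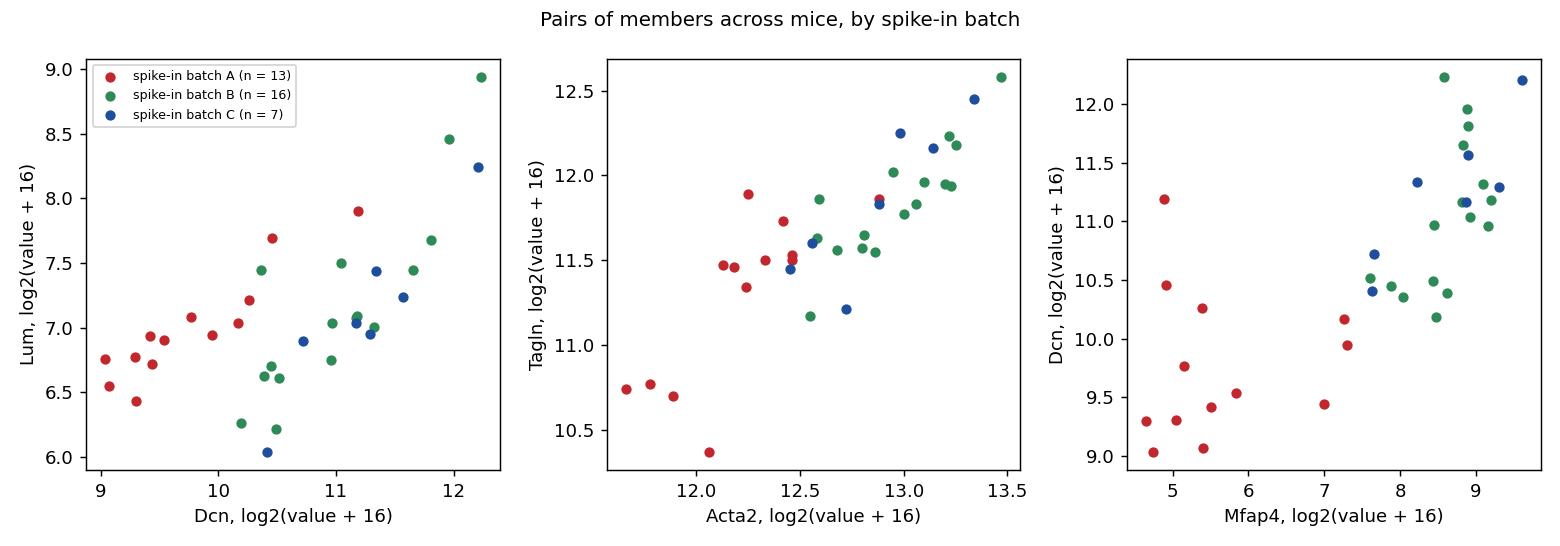
Levels of 3 pairs of members, as log2(value + 16), with a point for each mouse coloured by spike-in batch (n = 13, 16 and 7). Dcn and Lum rise together within each batch while batch A is shifted to lower Dcn, and r of Mfap4 and Dcn is 0.0514 in A, 0.541 in B and 0.864 in C.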

How the data were processed

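RNA was extracted with Trizol from single spleens and put on Affymetrix arrays, per the labels' protocols. The deposited intensity of each probe set is linear, and the submitters' processing notes name MAS5. Each array had a trimmed mean of 500.0, so all had been scaled to 1 target. The number of arrays limits the precision, and replicates are separate mice, per the design text, whose total count of animals differs from its group sizes.

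Values were analysed as log2(value + 16) without further normalization, which understates changes of dim probe sets. The 64 control probe sets and those with a mean log2 under 6.49 (40th percentile) were left out, which left 27022 of 45101 probe sets. Each gene stands for the probe set with its highest mean among those that name it alone in the platform annotation. Of the annotated probe sets 34945 name 1 gene and 932 several. Differences were tested with limma 3.58.1 (R 4.3.3; lmFit and eBayes with trend, two-sided, Benjamini-Hochberg over all tested probe sets), after tests on simulated data. Tables and permutation tests (100000 permutations, exact for 7 mice) used Python 3.11.15 and scipy 1.17.1.

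Spike-in batches came from Ward clustering into 3 of the 18 hybridisation control probe sets, centred on each array's mean. That recipe, the members, the lists, the division at ART9 and the tests were chosen with earlier results of these data known. Named genes were the members past the threshold (at most 15 by p), 10 members always given, and up to 3 per further list; other genes named were chosen after their values were seen. Correlations of same-numbered mice had a median of 0.151 and were over 0.1 in 11 of 18 pairs, short of every pair, so the numbers were not taken to pair the mice. Alternatives covered the pseudocount, filter, scaling, variance trend, probe set choice, blocks, covariates and left-out arrays. Protein sequences were not analysed here.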

Additional observations from a re-analysis of the deposited data

Results flagged for a closer look

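In 123 combinations of a member and a set of mice (ART1 to ART9, ART10 to ART18, and the 4 non-arthritic mice of spike-in batch A), 5 had a mouse whose gap to its nearest neighbour was large against the whole range of the set (Dixon's test at the 95% level). That is 4.07%, and chance flags about 1 in 20. In ART1 to ART9, Col4a1 stood at 11.74 in ART5, while the other 8 mice had 10.49 to 10.90. In the same set Mfap4 stood at 7.31 in ART2, while the others had 4.65 to 5.83. Among the non-arthritic mice of batch A, NON6 had Col3a1 at 11.04 against 12.02 to 12.22, and Pdgfrb at 9.88 against 10.67 to 10.72. NON1 had Des at 9.43 against 9.63 to 9.64. With 4 mice such a gap depends on how close the other 3 happen to lie.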

How the results depend on the processing

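Counts of members called kept within 1.5 times their value with pseudocounts of 1 and 64, no filter, quantile normalization and no variance trend. The counts that moved further were these. Arthritic against non-arthritic, 0 members passed with all mice, 4 without the 3 mice with pancreas transcripts, 1 with the median intensity as a covariate, and 0 to 3 with each mouse left out in turn. For ART1 to ART9 against the other 27, 22 passed with all mice, 0 with a block for the spike-in batch, 0 against the batch A non-arthritic mice alone, 2 with the Gapdh ratio as a covariate, and 20 to 24 with each mouse left out. In non-arthritic mice of batch A, 13 passed, 3 without the pancreas mice, 8 with all probe sets of a gene averaged (38 members), 2 with the Gapdh ratio, 6 with the median intensity, and 8 to 15 with each mouse left out. Above the 90th percentile of SD, 8 members became 14 with a pseudocount of 64 and 3 with no filter. Of the pairs, 13 of 24 passed, and 6 without the 2 farthest mice, where fewer mice are left. Except where a setting has fewer mice or genes, the cause was not tested. The covariates were chosen after seeing the data, and they move with the batches. Ward clustering into 2 joins batches A and B, so it gives no value for batch A.

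Replicate numbers were not taken to pair the mice, and whether they do was not tested. Over 18 pairs the correlation of deviations ran from -0.228 to 0.473, 11 were over 0.1, and 2 mice correlated best with their own number. With the replicate block 4 members passed in arthritic against non-arthritic mice (1.37% of all probe sets did). In ART1 to ART9 against the others 15 members passed with that block (7.35% of all probe sets did). The batch A comparison lies within non-arthritic mice and has no such block.

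For the named genes, 438 values under other settings kept their direction and side of the threshold, 90 lost a call, 3 gained one and 16 changed direction; with 1 mouse left out these were 1645, 30, 5 and 12. With probe sets averaged, 16 members were lower and 3 higher in ART1 to ART9. These changed direction. Arthritic against non-arthritic, without ART1 to ART9, Col1a1 stood at 0.20, Mfap4 at 0.40 and Myh11 at 0.13, with batch A left among non-arthritic mice alone. In the same comparison of groups Col4a1 stood at 0.022 without the pancreas mice and at 0.087 with probe sets averaged. It stood between -0.066 and 0.021 with each mouse left out in turn. For ART1 to ART9, Lum stood at 0.12 against ART10 to ART18, Sparc at -0.015 with probe sets averaged, and Col4a1 at -0.013 with the replicate block, -0.23 with the batch block or against batch A alone, and -0.064 with the Gapdh ratio. In non-arthritic mice of batch A, Dcn (0.050), Acta2 (0.090) and Timp3 (0.015) changed with probe sets averaged, Lum (0.071) without the pancreas mice and Sparc (-0.14) with the median intensity. None of the Lum, Sparc and Col4a1 values was past the threshold in the comparison of ART1 to ART9. Mfap4 and Col15a1 lie near or under the filter level in ART1 to ART9, which limits how low they can be read.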
